A study of Arabidopsis thaliana with 6 samples.

Results

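The type-A ARR genes of Arabidopsis thaliana encode response regulators that dampen the response to the plant hormone cytokinin. All 10 members were taken by their locus identifiers (ARR3, ARR4, ARR5, ARR6, ARR7, ARR8, ARR9, ARR15, ARR16 and ARR17), and all 10 have a row among the 36917 genes of the deposited table. In the cytokinin pathway, receptor kinases pass a phosphate group to phosphotransfer proteins, which carry it to the nucleus and hand it to response regulators. Type-B ARR proteins bind DNA and switch on target genes, the type-A ARR genes among them. Type-A ARR proteins have the phosphate-accepting receiver domain but no DNA-binding domain, and they act back on the pathway as inhibitors. Because cytokinin quickly induces several of them, their mRNA is widely used as a readout of cytokinin signalling in seedlings.

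RNA came from seedlings of 2 groups with 3 samples each, one carrying the bbx14-1 allele of the B-box transcription factor gene BBX14 and one wild type (WT), both given as Col-0. Both groups had 3 days of cold stratification at 4 °C on sucrose-free medium, 2 h of white light at 100 µmol photons per square metre and second, 3 days of darkness and then 1 day of light, with harvest on day 4. The labels name the allele but not the kind of lesion, and no label says that the samples of a group were grown separately. The p-values below therefore reflect how these 6 samples vary, part of which may be technical. The labels name no dissected organ, and in such bulk RNA fewer cells of a type and less RNA per cell of that type cannot be told apart.

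The libraries held 25505859 to 32621183 reads in the libraries labelled bbx14-1 and 20939505 to 32064650 in WT, and plastid genes took 49.61% to 56.67% of them in the libraries labelled bbx14-1 and 52.64% to 55.86% in WT. BBX14 mRNA was not lower under the bbx14-1 label, at 649, 761 and 892 normalized counts in the libraries labelled bbx14-1 and 540, 683 and 517 in WT (log2 fold change 0.40 ± 0.13 SE, limma, adjusted p = 0.0726), so each direction below refers to the label. BBX14 passed the threshold as higher without bbx14-1 replicate 1 (0.52, limma, adjusted p = 0.0306) and without WT replicate 2 (0.53, limma, adjusted p = 0.0199). Summed root markers ran from 1283 to 1425 normalized counts in the libraries labelled bbx14-1 and from 1135 to 1341 in WT. Summed shoot apex markers gave 574 to 665 normalized counts in the libraries labelled bbx14-1 and 553 to 617 in WT, and vascular markers 2415 to 2922 in the libraries labelled bbx14-1 and 2215 to 2620 in WT. Stomatal lineage markers summed to 164 to 181 in the libraries labelled bbx14-1 and 121 to 216 in WT. All 4 sums overlapped between the groups, and 0 of the marker genes tested were called by limma. However, 2 root markers were higher at an unadjusted p under 0.05, and voom called 1 of them. They were COBL9 and PRP3, named after their values were seen (log2 fold changes 1.59 and 0.83, limma, adjusted p = 0.0669 and 0.119). In both, all 3 libraries labelled bbx14-1 were above WT. Their means, 58.5 and 74.2 normalized counts in the libraries labelled bbx14-1 and 24.2 and 42.1 in WT, are small beside the root sum. SCR, CASP1 and SHR held most of the root sum and KNAT1 most of the shoot apex sum, also named after their values were seen. Overlap of these sums therefore says little about the rarer markers. Of 8 root markers tested, 6 had a positive and 2 a negative log2 fold change. The part of these cell types in the type-A ARR levels was not tested. The stem cell genes CLV3 and WUS had at most 4.00 normalized counts in any library, near the floor of detection.

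The 10 genes form 5 pairs of close relatives by the similarity of their coding sequences. Identity over a global alignment was 71.5% for ARR3 and ARR4, 78.4% for ARR5 and ARR6, 72.6% for ARR7 and ARR15, 77.5% for ARR8 and ARR9, and 79.1% for ARR16 and ARR17. In the RefSeq annotation of TAIR10.1, ARR5 (AT3G48100) lies on chromosome 3 from 17758427 to 17760950, ARR6 (AT5G62920) on chromosome 5 from 25252007 to 25254318, and ARR7 (AT1G19050) on chromosome 1 from 6577833 to 6579314, all on the minus strand with 5 exon blocks. ARR15 (AT1G74890) is also on chromosome 1, at 28131447 to 28133025, and has the same orientation. ARR4 (AT1G10470, 3441988 to 3444360) and ARR3 (AT1G59940, 22065617 to 22067233) are on the minus strand of chromosome 1 too. The plus strand carries ARR8 (AT2G41310, 17221840 to 17224880) and ARR16 (AT2G40670, 16969673 to 16972113) on chromosome 2, and ARR9 (AT3G57040, 21109059 to 21111567) and ARR17 (AT3G56380, 20905264 to 20906397) on chromosome 3. For 9 of the 10 members, 0% of the 50-base windows of the exons occurred elsewhere in the genome, and for ARR8 5.68% did. These are exact matches anywhere in the genome. Where those of ARR8 lie was not recorded, and reads aligned with mismatches are not covered.

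The 250 bases before the annotated gene start are shown for ARR5, ARR6 and ARR7, the 3 members that differed between the groups, and for ARR15, the near-silent relative of ARR7, because type-B ARR proteins act through promoters of this family. The motifs searched were chosen after the values were seen. The windows are chr3:17760951-17761200, chr5:25254319-25254568, chr1:6579315-6579564 and chr1:28133026-28133275 in TAIR10.1 (RefSeq), given 5′ to 3′ on the minus strand, the strand of the genes. Capitals mark each match, on either strand, to one of 6 hexamers of the kind that type-B ARR proteins bind (AGATAC or AGATAT or AGATCC or AGATCT or AGATTC or AGATTT).
ARR5: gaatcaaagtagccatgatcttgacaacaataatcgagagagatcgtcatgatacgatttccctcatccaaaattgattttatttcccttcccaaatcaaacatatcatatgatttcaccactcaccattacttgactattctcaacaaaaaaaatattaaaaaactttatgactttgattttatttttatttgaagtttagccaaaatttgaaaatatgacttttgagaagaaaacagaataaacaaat
ARR6: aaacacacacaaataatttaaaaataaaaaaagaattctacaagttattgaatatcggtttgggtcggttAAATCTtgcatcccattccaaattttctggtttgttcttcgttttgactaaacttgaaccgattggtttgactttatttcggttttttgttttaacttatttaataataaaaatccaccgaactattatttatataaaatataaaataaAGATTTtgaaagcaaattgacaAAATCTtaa
ARR7: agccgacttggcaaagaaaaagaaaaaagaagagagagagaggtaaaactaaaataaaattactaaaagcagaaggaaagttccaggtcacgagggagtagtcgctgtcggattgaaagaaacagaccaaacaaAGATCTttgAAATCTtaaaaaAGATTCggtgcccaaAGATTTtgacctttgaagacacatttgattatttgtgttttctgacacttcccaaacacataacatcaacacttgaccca
ARR15: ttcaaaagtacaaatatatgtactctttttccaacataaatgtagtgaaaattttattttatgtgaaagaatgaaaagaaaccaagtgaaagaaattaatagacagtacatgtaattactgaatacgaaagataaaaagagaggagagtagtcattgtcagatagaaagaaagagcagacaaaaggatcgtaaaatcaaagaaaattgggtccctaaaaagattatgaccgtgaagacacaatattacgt

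The ARR7 window held 4 of these hexamers and the ARR6 window 3, against 0 in the windows of ARR5 and ARR15. Of 27443 promoter windows of nuclear protein-coding genes, 66.3% held at least 1, 11.4% at least 3 and 3.6% at least 4. Among the other members, ARR16 had 4 matches, ARR9 3, ARR3 2 and ARR17 1, and ARR4 and ARR8 had 0. The G-box CACGTG, which HY5 and other light-signalling factors bind, was in 0 of the 10 windows and in 6.5% of all windows. The evening element AAAATATCT, a clock-protein site that overlaps the hexamer AGATAT on the other strand, was also in 0 of the 10, against 2.4% of all. CCAATC, a motif bound by GLK proteins, occurred 2 times in the ARR4 window and 1 time in the ARR6 window, against 10.2% of all windows with at least 1. These matches describe letters in a window, and the presence or absence of a match says nothing here about binding.

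Of the 10 members, 8 averaged 10 normalized counts or more over the 6 libraries and were tested. ARR5, ARR6 and ARR7 were higher in the libraries labelled bbx14-1 (limma, Benjamini-Hochberg adjusted p under 0.05 over all genes tested) and 0 were lower. Over all 19003 genes tested, 2.51% were called higher and 2.14% lower, 4.65% in all. The count of lower members was also 0 at an unadjusted p under 0.05 and with voom on the reads. At an unadjusted p under 0.05, 4 members were higher, the fourth being ARR9. Of the 19003 genes tested, 1629 were higher and 1551 lower at that threshold (limma), so 0 lower among 8 members is not a result about the family. The median log2 fold change of the 8 members was 0.29, against 0.003 for all genes tested. Without the variance trend that limma shares over genes 0 members were called (3 at an unadjusted p under 0.05), and without bbx14-1 replicate 2 also 0 (3 at an unadjusted p under 0.05).

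**Figure D1:**
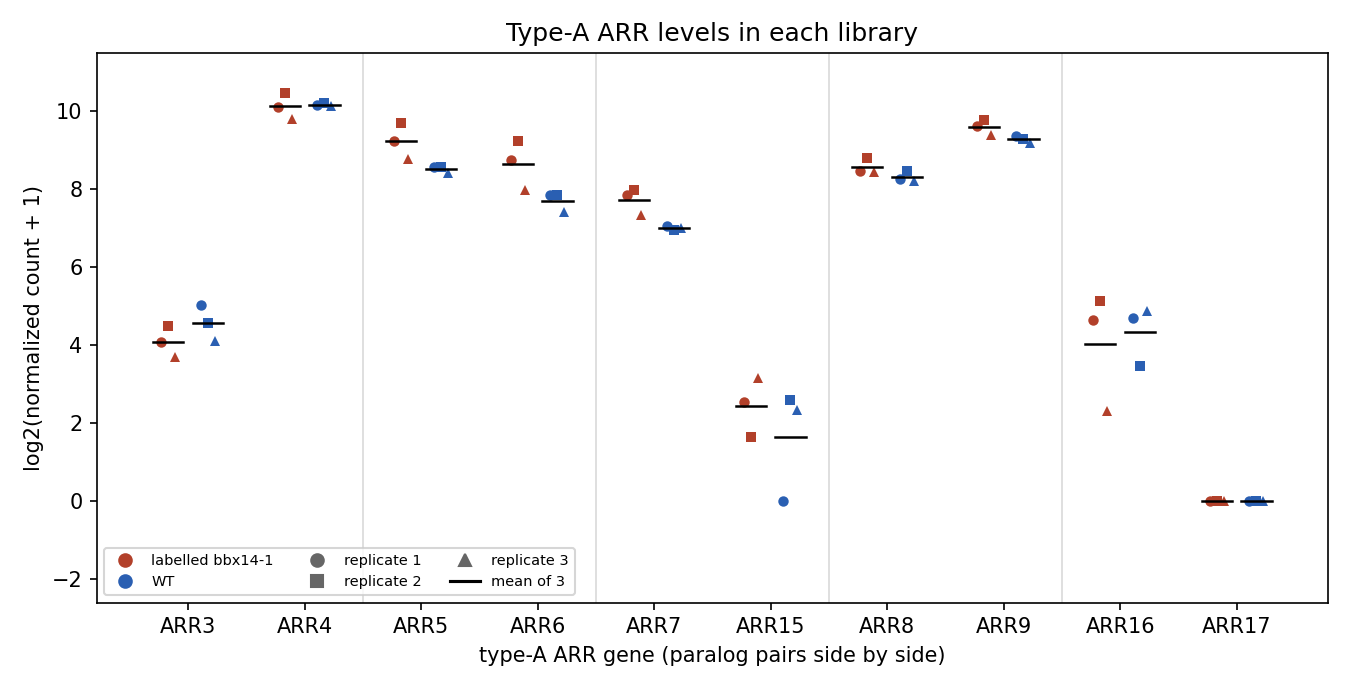
Levels of the 10 type-A ARR genes, as log2(normalized count + 1), in the 3 libraries labelled bbx14-1 (left, red) and the 3 WT libraries (right, blue) of each gene, with replicates as symbols and the mean of 3 as a bar. ARR5, ARR6, ARR7 and ARR9 have all 3 libraries labelled bbx14-1 above the 3 WT libraries, while ARR17 is at 0 throughout.

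ARR5 is a primary cytokinin response gene whose promoter is a common reporter of the hormone. It had 601, 829 and 436 normalized counts in the libraries labelled bbx14-1, replicates 1 to 3, and 382, 381 and 343 in WT. The groups did not overlap, the 3 WT libraries lay close together, and bbx14-1 replicate 3 stood nearest to WT. The means were 622 ± 197 in the libraries labelled bbx14-1 and 368 ± 22.1 in WT (SD, n = 3 each). The difference was 0.71 ± 0.16 (SE) on the log2(normalized count + 1) scale (limma, adjusted p = 0.00821), a fold change of 1.63 with a 95% interval from 1.30 to 2.05.

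ARR6, the closest relative of ARR5 and another rapidly cytokinin-induced gene, had the largest fold change among the tested members. It had 432, 604 and 253 normalized counts in the libraries labelled bbx14-1 and 231, 230 and 169 in WT. Again bbx14-1 replicate 2 was highest, and bbx14-1 replicate 3 lay just above the highest WT library. The means were 430 ± 175 in the libraries labelled bbx14-1 and 210 ± 35.3 in WT (SD, n = 3 each). The log2 fold change was 0.95 ± 0.21 (SE; limma, adjusted p = 0.00665), or 1.94-fold with a 95% interval from 1.44 to 2.61. A gene on the opposite strand, AT5G62910, overlaps 348 exon bases of ARR6. It had 217, 183 and 225 normalized counts in the libraries labelled bbx14-1 and 262, 257 and 206 in WT (log2 fold change -0.21; limma, adjusted p = 0.558). Library construction kept strand, but the strand setting of the counting is not given in the sources used here, so reads of the shared stretch may have gone to either gene.

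ARR7, which like ARR5, ARR6 and ARR15 is repressed by the stem cell regulator WUSCHEL in the shoot meristem, had 231, 253 and 160 normalized counts in the libraries labelled bbx14-1 and 132, 124 and 127 in WT. The WT libraries differed little, and every library labelled bbx14-1 was above them. The means were 215 ± 48.4 in the libraries labelled bbx14-1 and 128 ± 3.90 in WT (SD, n = 3 each). The log2 fold change was 0.72 ± 0.18 (SE; limma, adjusted p = 0.0226), or 1.64-fold with a 95% interval from 1.26 to 2.14. Its relative ARR15 was close to the limit of detection, with 6, 2 and 8 reads in the libraries labelled bbx14-1 and 0, 4 and 4 in WT. If reads are independent, a count of 0 has a 95% upper bound of about 3 reads. In these libraries 3 reads are worth between 2.40 and 3.77 normalized counts. All read counts of ARR3, ARR15 and ARR16 were even numbers, so reads may not be independent and this floor may be too low. ARR15 had 4.98 ± 2.93 normalized counts in the libraries labelled bbx14-1 and 3.02 ± 2.66 in WT (SD, n = 3 each). ARR15 was not tested, and its groups overlapped.

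ARR9 and ARR8 form the pair that responds more weakly to cytokinin. ARR9 had 787, 875 and 677 normalized counts in the libraries labelled bbx14-1 and 664, 629 and 586 in WT. These groups did not overlap either, but the difference was small and did not pass the test (log2 fold change 0.31 ± 0.11 SE, limma, adjusted p = 0.131, and from 0.0503 to 0.435 over the alternatives). Over all genes tested, 10.4% had all 3 libraries labelled bbx14-1 above all 3 WT libraries, as 4 of the 8 tested members did. ARR8 had 357, 445 and 348 normalized counts in the libraries labelled bbx14-1 and 304, 357 and 295 in WT, which overlap. Its log2 fold change was 0.26 ± 0.14 (SE; limma, adjusted p = 0.342), with a 95% interval from -0.02 to 0.54, so a rise as large as the lower bound for ARR5 was within it. The antisense genes AT2G09250 and AT3G08825, which overlap ARR8 and ARR9, had 0 normalized counts in all 6 libraries.

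ARR4 and ARR3 are the pair tied to light, since ARR4 protein binds the red-light receptor phytochrome B and both genes affect the period of the circadian clock. ARR4 had 1107, 1412 and 898 normalized counts in the libraries labelled bbx14-1 and 1145, 1183 and 1130 in WT. The group means were close, at 1139 ± 258 in the libraries labelled bbx14-1 and 1153 ± 27.5 in WT (SD, n = 3 each), while bbx14-1 replicate 2 lay above and bbx14-1 replicates 1 and 3 below every WT library. The log2 fold change was -0.04, with a 95% interval from -0.29 to 0.21 (limma, adjusted p = 0.912), and its sign turned without bbx14-1 replicate 3 (0.12). ARR3 was rare, with 16.0, 21.5 and 12.0 normalized counts in the libraries labelled bbx14-1 and 32.0, 22.6 and 16.1 in WT. Its fold change was -0.47 on the log2 scale with a wide 95% interval from -1.43 to 0.49 (limma, adjusted p = 0.68).

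ARR16 and ARR17 were rare or silent. ARR16 had 24.0, 34.4 and 4.00 normalized counts in the libraries labelled bbx14-1 and 25.2, 10.0 and 28.2 in WT. Both groups varied widely and overlapped, and the log2 difference, -0.31, had a 95% interval from -1.58 to 0.95 (limma, adjusted p = 0.865). Its sign turned without bbx14-1 replicate 3 (0.54), the library with 4.00. ARR17 had 0 reads in each of the 6 libraries, for which the bound is about 3 reads per library if reads are independent.

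Between members, levels were set per kilobase of exon. In the libraries labelled bbx14-1 the order was ARR4 (543 ± 123 normalized counts per kilobase, SD, n = 3), ARR5 (429 ± 136), ARR9 (412 ± 52.3), ARR6 (294 ± 120), ARR7 (228 ± 51.3) and ARR8 (162 ± 22.5), then ARR3 (12.6 ± 3.63), ARR16 (10.0 ± 7.44) and ARR15 (4.62 ± 2.72). In WT it was ARR4 (549 ± 13.1), ARR9 (331 ± 20.5), ARR5 (254 ± 15.2), ARR6 (144 ± 24.2), ARR7 (136 ± 4.13) and ARR8 (134 ± 14.1), then ARR3 (18.0 ± 6.07), ARR16 (10.2 ± 4.70) and ARR15 (2.80 ± 2.47). Each neighbour among the first 6 in the bbx14-1 order overlapped over the libraries, whereas in WT only ARR6, ARR7 and ARR8 overlapped with the neighbour in that stretch. In both groups the 6 abundant genes were separated from ARR3 and the genes after it. The mean of ARR5 above that of ARR9 in the libraries labelled bbx14-1 rested on replicate 2, since per kilobase ARR5 was just below ARR9 in bbx14-1 replicate 1 and lower than ARR9 in bbx14-1 replicate 3 and in all 3 WT libraries.

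The balance within the pairs of comparable level was described by the log2 ratio of the partners in each library. ARR5 over ARR6 was 0.57 ± 0.18 in the libraries labelled bbx14-1 and 0.82 ± 0.17 in WT (log2 ratio, SD, n = 3 each), and the groups overlapped. ARR8 over ARR9 was -1.02 ± 0.10 in the libraries labelled bbx14-1 and -0.98 ± 0.15 in WT (log2 ratio, SD, n = 3 each), with overlap as well. ARR5, ARR6 and ARR7 together made up 35.5%, 37.7% and 30.4% of the normalized counts of all 10 members in the libraries labelled bbx14-1 and 25.6%, 25.0% and 23.7% in WT. The 3 genes were chosen for their call, so these shares are a description and not a test. The sum over all 10 members was 3560, 4475 and 2797 normalized counts in the libraries labelled bbx14-1 and 2916, 2942 and 2698 in WT, which overlap.

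One pattern ran through the family. In all 8 tested members, bbx14-1 replicate 2 was the highest and bbx14-1 replicate 3 the lowest library of its group, whether or not the gene differed between the groups. Over all 19003 genes tested, 17.4% had both extremes in these libraries. Plastid genes took 54.55%, 56.67% and 49.61% of the reads of bbx14-1 replicates 1 to 3 and 55.86%, 52.64% and 55.26% of the WT replicates, so bbx14-1 replicate 3 also had the lowest and bbx14-1 replicate 2 the highest plastid share of the 6 libraries. The part of the plastid share in the type-A ARR levels was not tested. When libraries were scaled by nuclear-gene totals, ARR5, ARR6 and ARR7 were again called. Such scaling multiplies all genes of a library by the same factor, so it cannot test the part of the plastid share.

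**Figure D2:**
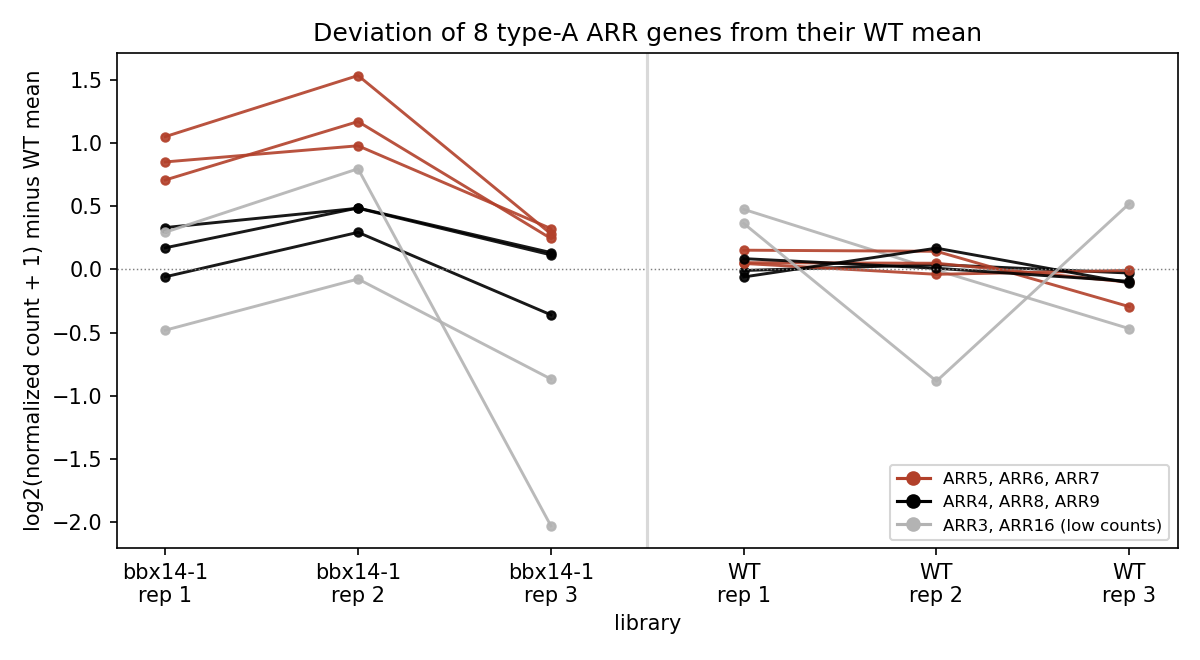
Deviation of 8 type-A ARR genes from their WT mean, in log2(normalized count + 1), for the 3 libraries labelled bbx14-1 (left) and the 3 WT libraries (right), with a line joining the values of one gene within a group. All 8 genes peak at bbx14-1 replicate 2 and are lowest at bbx14-1 replicate 3 within that group.

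The calls of ARR5, ARR6 and ARR7 depended on which libraries were included. Without bbx14-1 replicate 2 the log2 fold changes were 0.48, 0.67 and 0.59 in that order of genes (limma, adjusted p = 0.0829, 0.0738 and 0.15), and without bbx14-1 replicate 3 they were 0.94, 1.29 and 0.91 (limma, adjusted p = 0.000257, 8.233e-05 and 0.00479). ARR6 also missed the threshold without WT replicate 3 (0.81, limma, adjusted p = 0.0505). ARR7 missed it without bbx14-1 replicate 1 (0.65) and without WT replicates 1, 2 or 3 (0.74, 0.70 and 0.71; limma, adjusted p = 0.106, 0.0623, 0.05001 and 0.0647 over these 4 settings). Without the variance trend the adjusted p was 0.271, 0.279 and 0.192 for ARR5, ARR6 and ARR7 (limma). The direction was the same in all 16 alternatives for each of the 3 genes, which adds no support for it. Every library labelled bbx14-1 was above every WT library in these genes, so leaving out a library could not turn the sign. The count filters, the variance trend and the replicate block left the fold change itself unchanged.

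**Figure D3:**
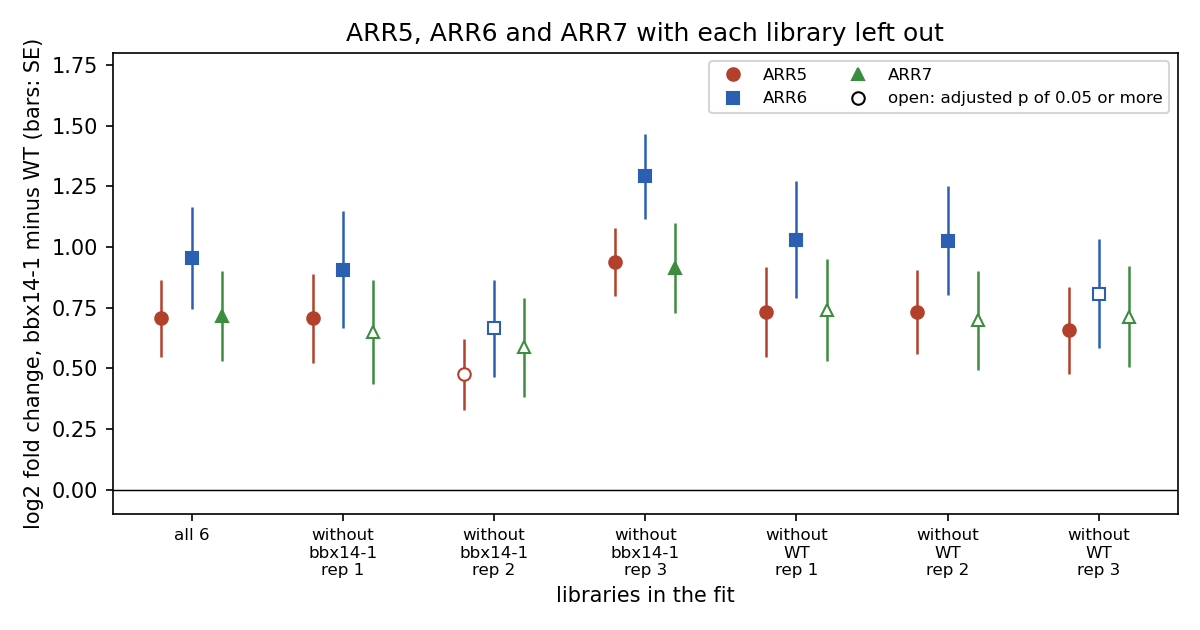
Log2 fold change (libraries labelled bbx14-1 minus WT, bars show the standard error) of ARR5, ARR6 and ARR7 with all 6 libraries and with each library left out, where an open symbol has an adjusted p of 0.05 or more. The values are lowest without bbx14-1 replicate 2, at 0.48, 0.67 and 0.59, and all 3 symbols are open there.

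Some other genes had profiles much like those of the called members. Across the 6 libraries and among tested genes that averaged 50 normalized counts or more, ARR9 had the pattern most like that of ARR6 (Pearson r = 0.993 on the log2 scale). The genes most like ARR5 were the cysteine synthase gene CYSD1 (r = 0.994), the kinase gene NEK2 (r = 0.993) and AT3G02900 (r = 0.990), and after ARR9 the closest to ARR6 were AT1G29025 and AT5G07870 (r = 0.990 and 0.989). For ARR7 they were AT1G62820, AT1G16930 and AT1G13195 (r = 0.996, 0.992 and 0.991). These values are the highest picked from a large set over 6 libraries that fall into 2 groups, and they carry no test. None of these 9 genes was called between the groups (limma, adjusted p from 0.131 to 0.563).

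Upstream of the type-A genes, the receptor gene AHK2 rose. It had 1094, 1053 and 1129 normalized counts in the libraries labelled bbx14-1 and 870, 791 and 787 in WT, with no overlap and little spread (log2 fold change 0.42 ± 0.10 SE, limma, adjusted p = 0.0103). The call was lost without WT replicate 3 (0.40, limma, adjusted p = 0.0528) and without the variance trend (adjusted p = 0.184). The other receptor genes, named after their values were seen, did not pass. AHK4, the main receptor of the root vasculature, had 189, 206 and 142 normalized counts in the libraries labelled bbx14-1 and 125, 133 and 141 in WT (log2 fold change 0.41, limma, adjusted p = 0.254). AHK3, a receptor gene with a main role in leaves, averaged 2980 ± 180 normalized counts in the libraries labelled bbx14-1 and 2969 ± 140 in WT (SD, n = 3 each; limma, adjusted p = 0.989).

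None of the phosphotransfer or type-B genes was called. Since 4.65% of all genes tested were called, 0 calls in such short lists say little about the lists. At an unadjusted p under 0.05 (limma), 1629 of all 19003 genes tested were higher and 1551 lower. Of 6 phosphotransfer genes listed, 4 were tested with 0 called by limma or voom and 0 at an unadjusted p under 0.05, and those with the most normalized counts, AHP2 and AHP5, were at log2 fold changes of 0.28 and 0.08. Of 11 type-B ARR genes, the DNA-binding activators, 6 were tested with 0 called by limma or voom and 1 at an unadjusted p under 0.05. That gene was ARR11, with 125, 120 and 131 normalized counts in the libraries labelled bbx14-1 and 70.6, 85.4 and 80.7 in WT (log2 fold change 0.66 ± 0.21 SE, limma, adjusted p = 0.0706), named here after its values were seen. The type-B genes with the most normalized counts, ARR1 and ARR12, were at log2 fold changes of 0.18 and -0.04, and ARR12 turned to 0.01 without WT replicate 2. Both type-C genes, ARR22 and ARR24, had 0 reads in all libraries.

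**Figure D4:**
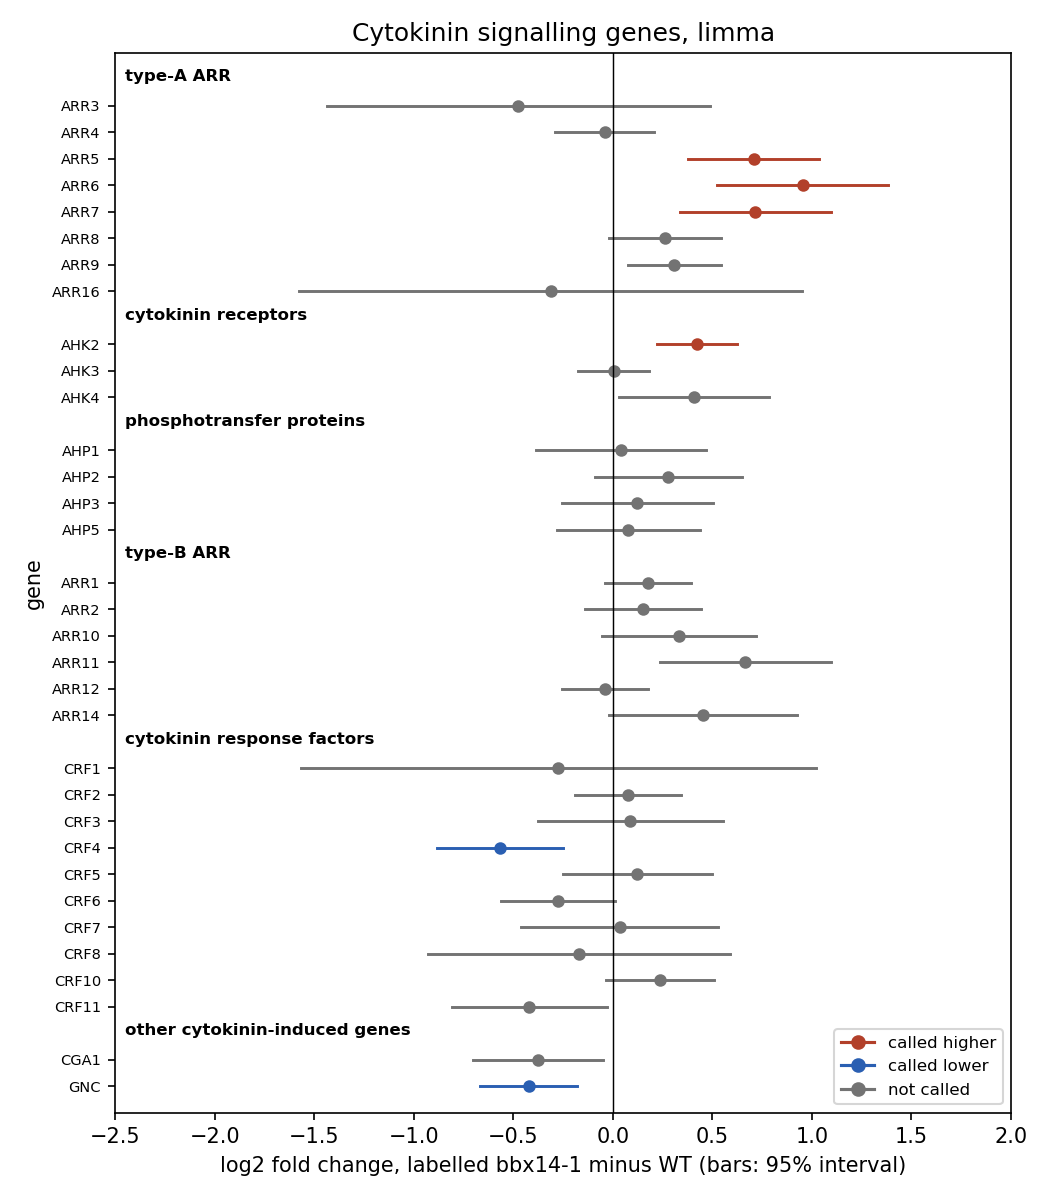
Log2 fold change (libraries labelled bbx14-1 minus WT) with its 95% interval for the tested genes of 6 cytokinin lists, where red is called higher, blue is called lower and grey is not called. ARR5, ARR6, ARR7 and AHK2 are called higher, and CRF4 and GNC are called lower.

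Further from the signalling chain, 0 genes of the other cytokinin lists were called higher by limma or by voom. At an unadjusted p under 0.05 (limma), 3 were higher and 4 lower. Of all 19003 genes tested, 1629 were higher and 1551 lower at that threshold, and 2.51% were called higher and 2.14% lower. The counts in these short lists are therefore given as a description. Of 10 cytokinin response factor genes, AP2-type factors of the pathway, 0 were called higher and 1 lower (limma). It was CRF4, with 168, 166 and 187 normalized counts in the libraries labelled bbx14-1 and 255, 281 and 238 in WT (log2 fold change -0.57 ± 0.15 SE, limma, adjusted p = 0.0295), a call lost without the variance trend (limma, adjusted p = 0.145) and without any 1 of the libraries other than bbx14-1 replicate 3 (limma, adjusted p from 0.0523 to 0.123). GNC, a GATA factor gene that cytokinin and light induce, fell by 0.42 on the log2 scale to 529 ± 46.6 normalized counts in the libraries labelled bbx14-1, against 711 ± 88.4 in WT (SD, n = 3 each; limma, adjusted p = 0.0355). The GNC call was lost without bbx14-1 replicate 2 or 3 or WT replicate 1 or 3 (limma, adjusted p from 0.056 to 0.228), without the variance trend (0.267) and under quantile normalization (0.0574). Its relative CGA1, also named after its values were seen, was not called, at -0.38 (limma, adjusted p = 0.209). LBD3, a cytokinin-induced gene of root vascular growth named after its values were seen, had 17 reads in bbx14-1 replicate 2 and 0 in the other 5 libraries, too few to be tested.

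Genes that set the amount of the hormone were not called. Of 18 synthesis and activation genes 12 were tested, of 10 breakdown and conjugation genes 7, and of 8 transport genes 7, with 0 called in each list by limma or by voom and 1 higher gene in each at an unadjusted p under 0.05. Those with the most normalized counts in each list were LOG1 and LOG7, which release the active hormone (log2 fold changes 0.09 and 0.13), the glucosyltransferase genes UGT85A1 and UGT76C1 (0.14 and 0.04), and the transporter genes PUP14 and ABCG14 (0.26 and 0.15). PUP14 passed the threshold without WT replicate 2 (0.40, limma, adjusted p = 0.0218). Over all 71 cytokinin genes outside the type-A family, 51 were tested, with 1 called higher and 2 lower and a median log2 fold change of 0.09. For comparison, 2.51% of all genes tested were called higher and 2.14% lower, with a median of 0.003. At an unadjusted p under 0.05 (limma), 1629 of those 19003 genes were higher. Given these shares, 0 calls in such short lists say little about the lists.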

How the data were processed

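The authors deposited normalized counts, in other words reads per gene scaled by library, per the name of the table. Per the submitters' processing notes the authors used Trimmomatic, FastQC, TopHat2 2.1.1, DESeq2 and featureCounts on the build TAIR10. How strand, annotation release and multiply matching reads were treated is not given in the sources used here. Libraries were made from total RNA after removal of ribosomal RNA, per the labels' protocols, so RNA without a poly(A) tail, plastid RNA included, could be counted and takes depth from nuclear genes. Dividing each library by its smallest nonzero value gave whole reads for 100% of nonzero values (tolerance 0.01), and these reads entered voom and the TMM scaling.

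Genes averaging 10 normalized counts or more went into limma 3.58.1 (R 4.3.3) on log2(normalized count + 1) with a variance trend, two-sided, with Benjamini-Hochberg adjustment over 19003 genes, and were called at an adjusted p under 0.05. Fold changes are libraries labelled bbx14-1 minus WT on that scale, which understates changes of low genes. Members and gene lists were chosen with earlier results of these data known. The genes named are the 10 members, BBX14, every called gene of a cytokinin list or its 2 most abundant tested genes, and the 3 genes most correlated with each called member. Antisense partners of members, the shoot stem cell markers and the type-C genes are named outside that rule, as are the genes marked in the text. Coordinates, exon lengths and sequences came from RefSeq TAIR10.1, to which 36632 of 36917 identifiers could be matched. Coding identity is the highest over annotated isoforms. Replicates differed by more than counting noise (chi-square per degree of freedom of at least 8.08, with each read taken as an independent count).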

Additional observations from a re-analysis of the deposited data

How the results depend on the processing

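The gene counts and the fold changes of members and of most named genes were recomputed under 16 alternatives: pseudocounts of 0.5 and 5, no filter, a minimum mean of 50, no variance trend, TMM scaling, scaling by nuclear-gene totals, voom, the replicate number as a block, quantile normalization (chosen after seeing the data) and each library left out. The edgeR quasi-likelihood test was not run, and a minimum mean of 50 left ARR3 and ARR16 without a value. The partner ratios were recomputed under the pseudocounts and with each library left out. The calls of CGA1, CYP735A1, CKX5, IPT3 and the marker genes were recomputed with voom alone, and the other values with no test under no alternative. Over all genes, 477 were called higher and 406 lower. Without the variance trend these counts were 13 and 15, and with a library left out they ran from 282 to 437 higher and from 247 to 406 lower. Called members numbered 0 without the trend and 0 to 3 with a library left out, and 3 in the other 9 alternatives. The cause of these changes was not tested. Signs turned in genes that were not called. With a library left out, the log2 fold change ran from -0.21 to 0.12 for ARR4, -0.87 to 0.54 for ARR16, -0.0392 to 0.0481 for AHK3, -0.0402 to 0.30 for AHP5, -0.0934 to 0.0119 for ARR12, -0.0089 to 0.24 for LOG1, -0.12 to 0.20 for UGT76C1 and -0.0406 to 0.24 for ABCG14. AHK3 was at -0.0023 under nuclear-gene totals. The replicate block gave 3 called members, as did the fit without it. With the block the adjusted p was 0.00161, 0.000251 and 0.0201 for ARR5, ARR6 and ARR7, against 0.00821, 0.00665 and 0.0226 without it (limma). Over all genes tested the same-numbered libraries did not deviate together (r of 0.042, 0.017 and -0.03), so the numbers were not taken as pairs. Depth limits ARR3, ARR15, ARR16 and ARR17, which had at most 34.4 normalized counts in any library.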
